A study of Mus musculus with 4 samples.

Results

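The 10 genes described here are osteoblast factors and non-collagen genes of bone matrix: Sp7, Runx2, Ibsp, Panx3, Phex, Alpl, Sparc, Dmp1, Mepe and Spp1. They were chosen by name, and their level was the mean over the transcript clusters that the array annotation pairs with that symbol alone. Of the 10, 8 had such a cluster, among 22180 genes with a name on the arrays. Alpl had 2 clusters and each of the other measured genes had 1. Runx2 and Spp1 had no cluster with a single listed symbol and were not analysed here.

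The 4 arrays (Affymetrix Mouse Gene 2.0 ST), 1 for each group, read transcripts through many short probes along their exons. Heads came from wild-type and from Tbx1KO (Tbx1 knockout) mouse embryos at embryonic day 12.5 (E12.5). Palatal shelves came from embryos of the same 2 genotypes at E13.5, and the strain background was mixed C57BL/6J x FVB/N throughout. Tbx1 encodes a T-box transcription factor of the pharyngeal region, and the series asked what its loss changes in the head and in the shelves, the paired outgrowths of the upper jaw that form the secondary palate. The labels do not describe the deleted part of Tbx1 or say whether embryos were pooled, and 1 field gives the E13.5 samples as heads, against the palatal shelves of their titles, which were followed.

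Membranous bones of the face form directly from condensed mesenchyme. Runx2 commits cells to the osteoblast lineage, Sp7 (osterix) acts after it, and the cells then make alkaline phosphatase and a collagen matrix that acidic phosphoproteins such as bone sialoprotein help to mineralise. Dmp1, Mepe and Phex are best known from late osteoblasts and osteocytes, the cells enclosed in bone.

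Values are log2 expression from the authors' RMA processing, so a difference of 1 is a 2-fold change, and levels were compared between arrays for the same gene only. A gene entered a comparison of 2 arrays when its higher level reached 6.16, the median level of all named genes on the arrays. Over all transcript clusters, Pearson's r was 0.991 between the head arrays, 0.988 between the shelf arrays and 0.973 to 0.979 between head and shelves. The level of Tbx1 was 6.83 in wild-type and 6.25 in knockout head, and 7.39 in wild-type and 6.18 in knockout shelves. With 1 array a group, differences between 2 arrays have no replicate check.

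The bone genes were higher in the palatal shelves at E13.5 than in the head at E12.5, and this held for both genotypes. Over all 22180 genes, dim ones included, the difference of wild-type shelves minus wild-type head had a median of 0.023. The share of all genes above 0 was not counted. All 8 measured bone genes were higher in the wild-type shelves, including Dmp1 and Mepe, which lay below the limit for entry on every array. Their median log2 difference was 1.83. The sequences just before the transcription start are shown for 3 of them that cover the range of behaviour: Ibsp, which differed most between the tissues, Mepe, its chromosomal neighbour, whose array values stayed low on every array, and Sparc, which was bright on every array. They are the 250 bases before the start in RefSeq's annotation of GRCm38.p6, at chr5:104299037-104299286 (Ibsp, + strand), chr5:104325079-104325328 (Mepe, + strand) and chr11:55420081-55420330 (Sparc, - strand), each 5′ to 3′. Capitals mark matches, on either strand, to 5 short motifs.
Ibsp: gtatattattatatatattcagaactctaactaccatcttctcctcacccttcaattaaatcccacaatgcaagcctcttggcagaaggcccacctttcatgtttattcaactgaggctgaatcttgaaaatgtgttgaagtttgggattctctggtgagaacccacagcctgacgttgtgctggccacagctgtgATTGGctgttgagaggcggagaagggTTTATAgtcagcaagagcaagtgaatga
Mepe: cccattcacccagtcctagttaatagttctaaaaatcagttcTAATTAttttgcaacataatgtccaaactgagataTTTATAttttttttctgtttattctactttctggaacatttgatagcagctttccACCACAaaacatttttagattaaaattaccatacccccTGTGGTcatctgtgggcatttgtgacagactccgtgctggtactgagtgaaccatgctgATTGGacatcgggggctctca
Sparc: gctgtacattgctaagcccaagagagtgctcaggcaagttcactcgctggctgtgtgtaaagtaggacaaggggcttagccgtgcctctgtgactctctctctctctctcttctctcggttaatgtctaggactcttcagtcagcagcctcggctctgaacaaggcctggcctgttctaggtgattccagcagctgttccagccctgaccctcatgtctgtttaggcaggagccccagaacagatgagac

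The motifs were the core bound by Runx factors (ACCACA), the GC box (GGGCGG), a homeodomain core (TAATTA), the CCAAT box (CCAAT) and the TATA box (TATAAA). Before the Ibsp start, both matches were in reverse orientation, a CCAAT box from base 54 to 50 and a TATA box from base 28 to 23 before the start. A TATA box of these letters occurred in 12.4% of all 32851 promoters of this length and a CCAAT box in 33.8%. Before the Mepe start there were 5 matches, among them Runx cores from base 118 to 113 and, in reverse orientation, from base 80 to 75, and 14.0% of all promoters held a Runx core. The homeodomain core, read once before the Mepe start, occurred in 4.84% of promoters. Sparc held no match in this window. Of the 8 measured genes, 6 were matched to 8 promoters, and GC boxes, present in 32.7% of all promoters, were found among these only before the first start of Alpl, where 2 overlapped. The Runx core was also present once before the second start of Dmp1. Sp7 and Panx3 had no entry. A match describes the letters and does not show binding.

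**Figure D1:**
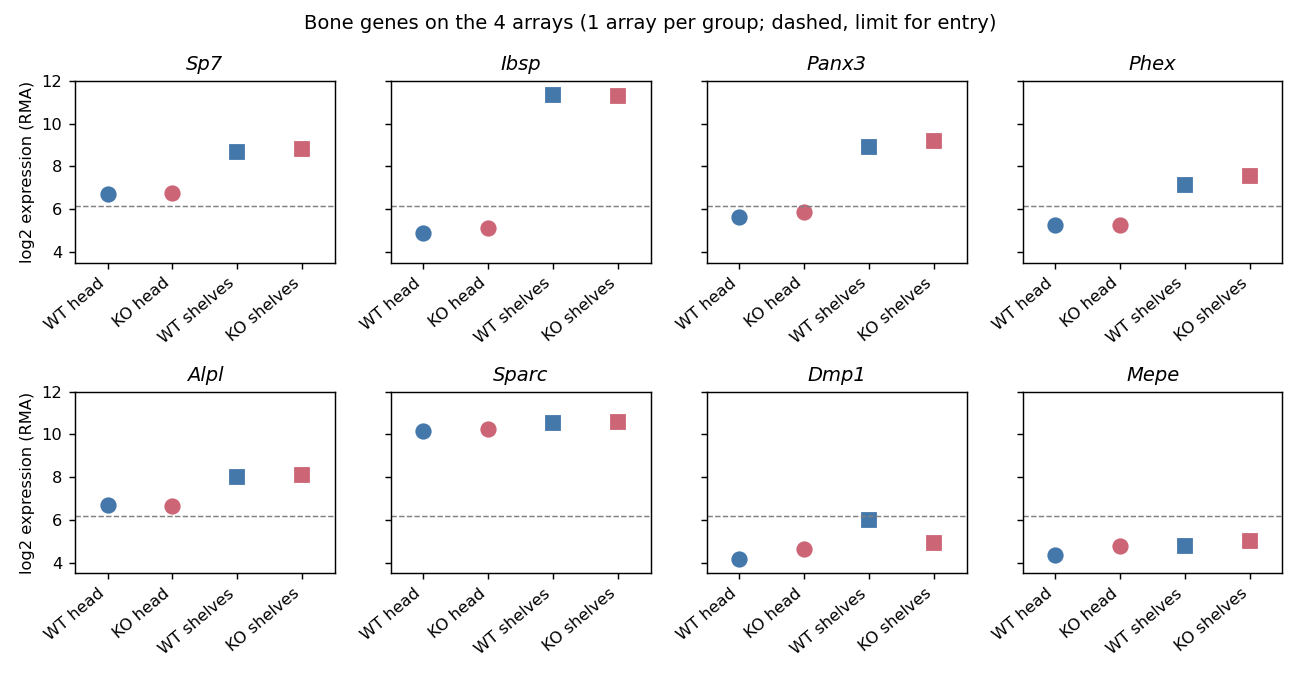
Log2 expression (RMA) of the 8 measured bone genes on the 4 arrays, 1 panel per gene. Circles are head at E12.5, squares are palatal shelves at E13.5, blue is wild type and red is Tbx1 knockout, and the dashed line is the limit for entry (6.16). Ibsp stood at 4.87 and 5.12 in the heads and at 11.37 and 11.29 in the shelves.

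The factor of the group that could be measured was Sp7, a zinc finger protein without which osteoblasts do not form. Its level was 6.72 in wild-type head, 6.73 in knockout head, 8.69 in wild-type shelves and 8.83 in knockout shelves. Both shelf arrays lay above both head arrays, and the difference between shelves and head was 1.97 (3.91-fold) in wild type and 2.10 (4.28-fold) in knockout. In a limma fit of genotype and tissue to all 4 arrays, the log2 difference of shelves minus head was 2.03 (SE 0.10, adjusted p = 9.86e-05).

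Ibsp encodes bone sialoprotein, an acidic integrin-binding protein that can seed mineral crystals. Its level was 4.87 in wild-type head, 5.12 in knockout head, 11.37 in wild-type shelves and 11.29 in knockout shelves. Neither head array reached the limit for entry, whereas both shelf arrays were far above it. The fitted log2 difference was 6.34 (SE 0.12, limma adjusted p = 9.13e-06), and the fold was 90.6 between the wild-type arrays and 72.1 between the knockout arrays. It had the largest absolute difference and the smallest limma p for tissue of the 11999 genes fitted. Head levels this low are compressed by the array's background, so the fold depends on that floor.

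Panx3 encodes a pannexin channel of osteoblasts and prehypertrophic chondrocytes. Its level was 5.61 in wild-type head, 5.85 in knockout head, 8.89 in wild-type shelves and 9.21 in knockout shelves. The shelves were above the heads by 9.73-fold in wild type and 10.3-fold in knockout, with a fitted log2 difference of 3.32 (SE 0.10, limma adjusted p = 4.05e-05), and Panx3 ranked 7 from the top among the 11765 genes that entered the wild-type comparison. Its relative Panx1, a widely expressed pannexin, fell by 1.08 in the same fit (limma adjusted p = 0.000536).

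Phex, a membrane endopeptidase of osteoblasts and osteocytes that restrains the phosphate hormone FGF23, was at 5.28 in wild-type head, 5.23 in knockout head, 7.14 in wild-type shelves and 7.57 in knockout shelves. The shelves were again above the heads, by 3.64-fold in wild type and 5.05-fold in knockout, and the fitted log2 difference was 2.10 (SE 0.14, limma adjusted p = 0.000165). Alpl, the tissue-nonspecific alkaline phosphatase that removes the mineral inhibitor pyrophosphate, was at 6.71 and 6.64 in wild-type and knockout head and at 7.997 and 8.11 in wild-type and knockout shelves. Its fitted log2 difference was 1.38 (SE 0.11, limma adjusted p = 0.000275). The 2 clusters of Alpl were both higher in the shelves but by unequal amounts. The brighter cluster rose by 3.42-fold and the dimmer by 1.75-fold between the wild-type arrays.

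Sparc (osteonectin), a collagen-binding protein made by osteoblasts and by many other connective tissue cells, was at 10.15 in wild-type head, 10.26 in knockout head, 10.54 in wild-type shelves and 10.58 in knockout shelves. Both shelf arrays lay above both head arrays, but the spread over the 4 arrays was small (0.43). The fitted log2 difference was 0.35 (SE 0.10, limma adjusted p = 0.0401). That call was lost when each array was centred on its median (0.0695), without a filter on dim genes (0.122) and with 1 common variance (0.0625), each a limma adjusted p.

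Dmp1 and Mepe, acidic matrix proteins of osteocytes, did not reach the limit for entry on any array and were not in the fit. Dmp1 was at 4.18 in wild-type head, 4.64 in knockout head, 5.97 in wild-type shelves and 4.92 in knockout shelves, so the wild-type shelf array stood above the other three. Mepe was at 4.37 in wild-type head, 4.79 in knockout head, 4.77 in wild-type shelves and 5.01 in knockout shelves. All of these levels lie where array values are compressed.

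**Figure D2:**
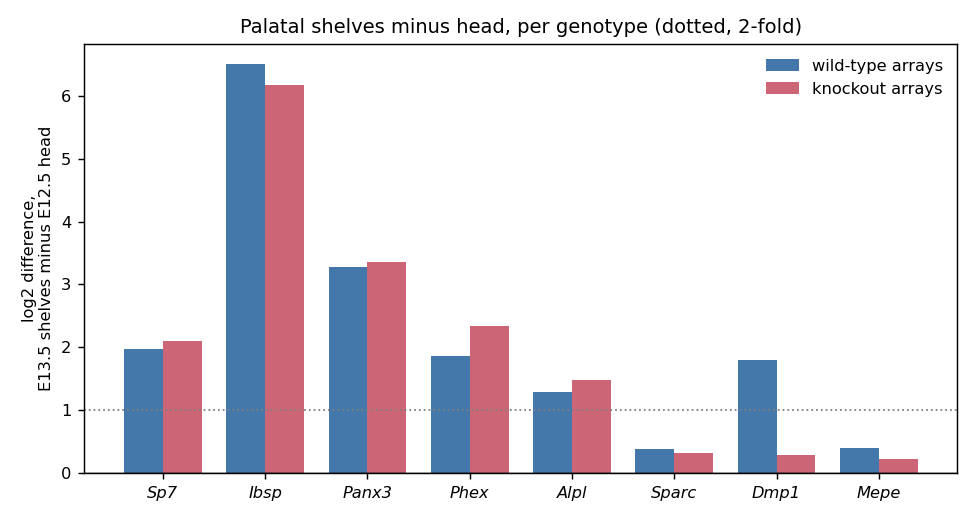
Log2 difference of E13.5 palatal shelves minus E12.5 head for each bone gene, wild-type arrays in blue and knockout arrays in red, each bar 1 array minus 1 array, with a dotted line at 2-fold. Ibsp had the tallest bars (6.50 and 6.17), and Dmp1 was above the line in wild type (1.80) but not in knockout (0.28).

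Of the 8 measured genes, 6 entered the comparison of the wild-type arrays. Among these, 5 were at least 2-fold higher in the shelves, against 2.89% of the 11765 genes that entered, and 0 were at least 2-fold lower, against 5.27%. Between the knockout arrays, Sp7, Ibsp, Panx3, Phex and Alpl again exceeded 2-fold in favour of the shelves, against 2.66% of the genes that entered there. In the limma fit 6 of 6 genes passed an adjusted p of 0.05 as higher in the shelves, against 13.0% of all genes fitted, and 14.9% passed as lower. Ibsp, Panx3 and Phex entered only through the arrays in which they were high, so they had to differ, and the counts describe these genes without supporting a general statement. The additive fit has 1 residual degree of freedom per gene and draws most of its spread from a prior over all genes (5.49 degrees of freedom, SD 0.107). Stage and tissue changed together and cannot be told apart.

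Tissue make-up moved along with this comparison. Of 12 neuronal genes, 12 were lower in the shelves in the limma fit, with a median difference of -2.33 between the wild-type arrays. The titles name head, and the part of brain tissue in this difference was not tested. Of 9 measured palatal mesenchyme factors 8 passed as higher, including Pax9 (1.99) and Lhx8 (1.63), and 4 of 4 oral epithelium genes did, including Epcam (1.79). Among cartilage markers 5 of 9 fitted genes were higher and 1 lower. Over all genes fitted, 13.0% passed as higher and 14.9% as lower. In the head pair, 8 palatal mesenchyme factors, 3 oral epithelium genes and 8 cartilage markers entered. The others fitted from these lists entered only through the shelves, so they had to differ. Hapln1, which links aggrecan to hyaluronan, rose by 1.13, and Sox9, the master factor of chondrocytes, fell by 0.79. In bulk tissue, more cells of a type and more RNA per cell cannot be told apart, and the part of tissue make-up in the bone gene differences was not tested.

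Other genes of bone formation, from lists written with earlier results of these data known, followed in part. In these counts, here and below, rose and fell mean an adjusted p under 0.05 in the limma fit. Among type I collagen and the proteins that fold and process it, 9 of 11 fitted genes rose in the shelves and 0 fell. Between the wild-type arrays all 11 were above 0. Col1a1, the main chain of bone collagen, rose by 0.77, Creb3l1, a factor of the secretory pathway in osteoblasts, by 1.11, and Plod2, a lysyl hydroxylase, by 1.13. Among other genes of the mineralised matrix, 4 of 9 fitted genes rose and 2 fell. The shares over all genes fitted were 13.0% higher and 14.9% lower. Omd (osteomodulin, a keratan sulfate proteoglycan of bone) rose by 3.27 (limma adjusted p = 4.27e-05) and Ifitm5 (a membrane protein of osteoblasts) by 2.45 (limma adjusted p = 5.72e-05). Both were below the limit in both heads and, like Ibsp, entered only through the shelves, so they had to differ. Fam20c, the kinase that phosphorylates acidic matrix proteins, fell by 1.39, and Mgp, an inhibitor of mineralisation, rose by 1.40. Fam20c lay below the limit in both shelf arrays and entered only through the heads, so it had to differ as well. Bglap, the osteocalcin gene of mature osteoblasts, lay below the limit for entry with levels of 5.26 to 5.73 on the 4 arrays.

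Regulators and signals of osteoblasts were mixed. The counts of this paragraph stand against 13.0% higher and 14.9% lower over all genes fitted. Of 13 fitted regulators, 3 rose and 2 fell in the shelves, and the part that fell was near the share of all genes. Fosl2, an AP-1 factor of bone cells, rose by 1.25 and Dlx3, a homeodomain factor, by 0.48. Msx2 fell by 0.99 and Twist2, an inhibitor of Runx2, by 1.23. Msx2 and Twist2 lay below the limit in both shelf arrays and entered only through the heads, so they had to differ. Of 16 fitted signalling genes, 7 rose and 1 fell. Bmp2 (0.91) and Tnfrsf11b (osteoprotegerin, which blocks osteoclast formation, 1.09) were among the higher, and Fgfr3 (-0.74) was the lower. Tnfrsf11b was below the limit in both heads and entered only through the shelves, so it had to differ. Runx1, the relative of Runx2 found in blood progenitors and in oral epithelium, rose by 1.72 (limma adjusted p = 0.000226). Of 6 fitted osteoclast genes, 2 rose, the proteases Ctsk (0.89) and Mmp9 (1.16). In the head pair 2 of the 6 entered, and Ctsk and Mmp9 were not both among them. A gene that entered only through the shelves had to differ. Of the 11 measured, 5 lay below the limit on every array, Dcstamp, Ocstamp, Atp6v0d2, Tnfrsf11a and Oscar. The hypertrophic cartilage marker Col10a1 was between 4.47 and 4.91 on the 4 arrays, below the limit. Of 6 tooth matrix genes 4 lay below it, and Ambn (ameloblastin, an enamel matrix gene) rose by 1.89. Ambn was below the limit in both heads and entered only through the shelves, so it had to differ.

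Ibsp, Dmp1, Mepe and Spp1 lie next to each other on mouse chromosome 5 together with Dspp, the dentin gene, in the order Dspp, Dmp1, Ibsp, Mepe, Spp1 in the annotation of GRCm38.p6. They encode the small integrin-binding glycoproteins of bone and tooth. Between the wild-type arrays, Ibsp was 6.50 higher in the shelves on the log2 scale while its neighbours Dmp1 and Mepe were 1.80 and 0.39 higher. Dspp was at 4.38 in wild-type head, 4.27 in knockout head, 4.32 in wild-type shelves and 4.29 in knockout shelves, with no array apart from the rest. Sparcl1, a relative of Sparc just outside the cluster, was at 9.34, 9.65, 9.48 and 9.91 in the same order.

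**Figure D3:**
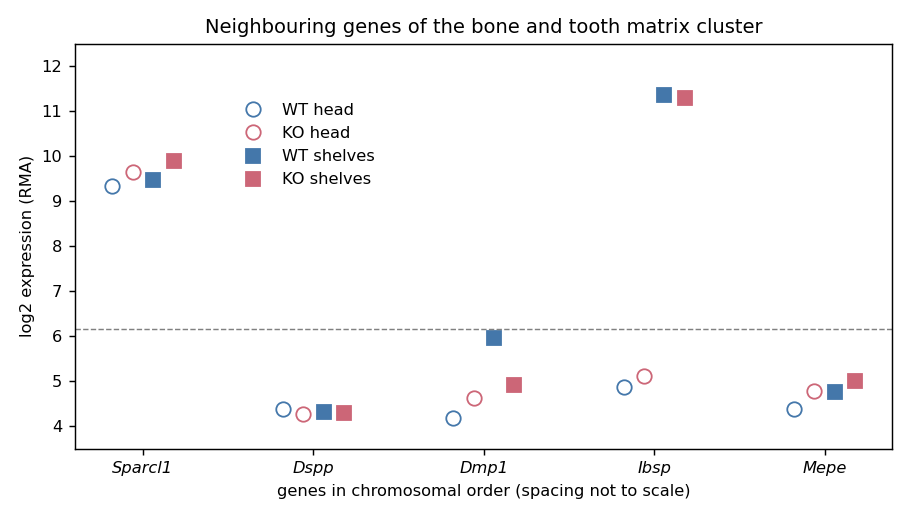
Log2 expression (RMA) of 5 neighbouring genes of chromosome 5, in chromosomal order with spacing not to scale; circles are heads, squares are palatal shelves, blue is wild type, red is knockout, and the dashed line is the limit for entry. Ibsp alone among these genes had both shelf arrays above the limit and both head arrays below it.

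The genes whose pattern over the 4 arrays lay closest to that of Ibsp, the bone gene with the widest range, were found by the root-mean-square distance between profiles centred on their own mean. They were Cbr2 (1.14), Bpifa1 (1.24), Panx3 (1.51), Omd (1.57), Krt6a (1.63) and Krt17 (1.63). Panx3 and Omd are bone genes, Bpifa1 is a secreted protein of airway epithelium and Krt6a and Krt17 are keratins. With 4 arrays, this likeness says little more than that these genes were much higher in the shelves. Of 22179 genes, Phex ranked 38, Sp7 44, Alpl 141, Dmp1 328, Sparc 2250 and Mepe 2795.

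Differences between knockout and wild type were smaller. In the E12.5 head, 3 of the bone genes entered the comparison, Sp7, Alpl and Sparc. Their knockout minus wild-type differences were 0.0093 for Sp7, -0.069 for Alpl and 0.10 for Sparc, where the SD over all 11364 genes that entered was 0.157. None of the 3 was at least 2-fold higher or lower, against 0.0352% and 0.0528% of those genes. The other 5 lay below the limit in both head arrays, with differences from -0.044 for Phex to 0.46 for Dmp1.

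In the E13.5 shelves, 6 bone genes entered the comparison and 5 of them were higher in the knockout array. Phex had the largest difference, 0.43 (1.34-fold), followed by Panx3 at 0.32 (1.25-fold), Sp7 at 0.14, Alpl at 0.12 and Sparc at 0.043, while Ibsp was at -0.076. The median was 0.13, against 0.021 over all 11449 genes that entered, whose SD was 0.259. None of the 6 was at least 2-fold higher or lower, against 0.463% and 0.472% of all genes. A larger absolute difference than that of Phex was found for 6.70% of genes that entered and than that of Panx3 for 12.5%. The 2 clusters of Alpl went opposite ways, 0.32 for the brighter and -0.089 for the dimmer.

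Dmp1 differed most between the shelf arrays. It was 2.08-fold lower in the knockout, but its higher level, 5.97, did not reach the limit for entry. Mmp13, a collagenase of bone and hypertrophic cartilage, stood at 6.40 in the wild-type and 4.04 in the knockout shelves, a log2 difference of -2.36. It entered only through the wild-type array, in which it was high, so it had to differ. Omd was at -0.31 and Ifitm5 at -0.029.

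**Figure D4:**
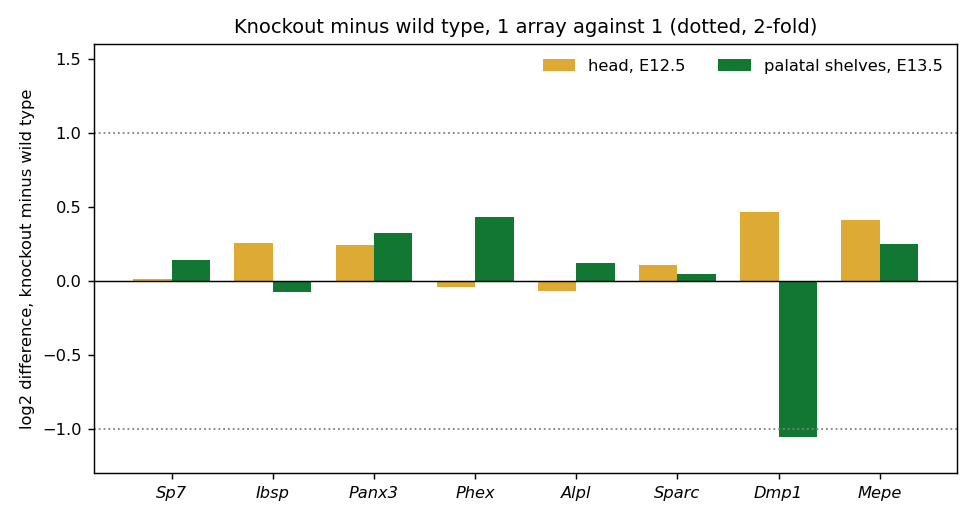
Log2 difference of knockout minus wild type for each bone gene, head at E12.5 in yellow and palatal shelves at E13.5 in green, each bar 1 array minus 1 array, with dotted lines at 2-fold. Dmp1 in the shelves (-1.06) is the 1 bar past a dotted line, and it comes from a gene below the limit for entry.

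Over both pairs, the limma fit called 0 of the 6 bone genes for genotype, in either direction, and 0 of 11999 genes overall (0% higher and 0% lower); 628 genes (5.23%) had an unadjusted limma p under 0.05. Panx3 had the largest fitted difference of the 6, 0.28 (SE 0.10, 95% interval 0.042 to 0.52, limma adjusted p = 0.919, unadjusted p = 0.0279). It was higher in the knockout of both pairs, but its head levels, 5.61 and 5.85, were below the limit for entry. For Ibsp the interval was -0.19 to 0.37, for Sp7 -0.17 to 0.32, for Phex -0.13 to 0.52, for Alpl -0.23 to 0.28 and for Sparc -0.17 to 0.31. These intervals did not reach a 2-fold change of either kind, and they did not leave out an increase of about the size seen for Panx3. They assume the same genotype effect in both tissues, yet Ibsp, Phex and Alpl had opposite signs in the 2 pairs. With 1 array per group they hold no spread within a group, so a 2-fold change is not excluded. In the heads, Ibsp, Panx3 and Phex lay below the limit, where differences are compressed.

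Other genes of bone formation were compared between the shelf arrays too. Of 16 signalling genes that entered, 13 were above 0, with a median of 0.21. At least 2-fold different were 0, against 0.463% higher and 0.472% lower among all 11449 genes that entered. Fgfr3 was at 0.63, Lrp5, a Wnt co-receptor that sets bone mass, at 0.40, and Bmpr1b, a BMP receptor, at -0.52. Of 11 type I collagen genes, 9 were above 0 with a median of 0.19, led by Plod1 (0.48) and Creb3l1 (0.37). The 8 other mineralised matrix genes that entered had a median of -0.058, and the 11 regulators one of -0.039, with Dlx6 at -0.63. In the head, the medians were 0.026 for signalling, 0.0057 for collagen, -0.059 for mineralised matrix and -0.048 for regulators. Over all genes that entered, the median was 0.021 in the shelves and -0.017 in the head. Medians over genes that entered are descriptions, and the share of all genes above 0 was not counted.

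Markers of other tissues differed between the same shelf arrays. Over all 22180 genes, dim ones included, the median difference was -0.0068, and the share above 0 was not counted. Of 12 neuronal genes 11 were above 0 in the knockout shelves (median 0.63), 11 of 11 measured low-oxygen genes were (median 0.80), and 11 of 12 measured skeletal muscle genes were below 0 (median -1.11). Of 10 measured macrophage genes 8 were below 0 (median -0.26), including Fcer1g (-0.76). Of 11 measured osteoclast genes 8 were above 0 (median 0.11), but 5 of the 11 lay below the limit on every array. The list held Calcr, the calcitonin receptor, at 1.63. Between the shelf arrays Calcr entered only through the knockout array, in which it was high, so it had to differ. The mean log2 level of the neuronal list was 8.30 in the knockout and 7.67 in the wild-type shelves. The part of these tissue differences in the values of Phex, Panx3 and Dmp1 was not tested.

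**Figure D5:**
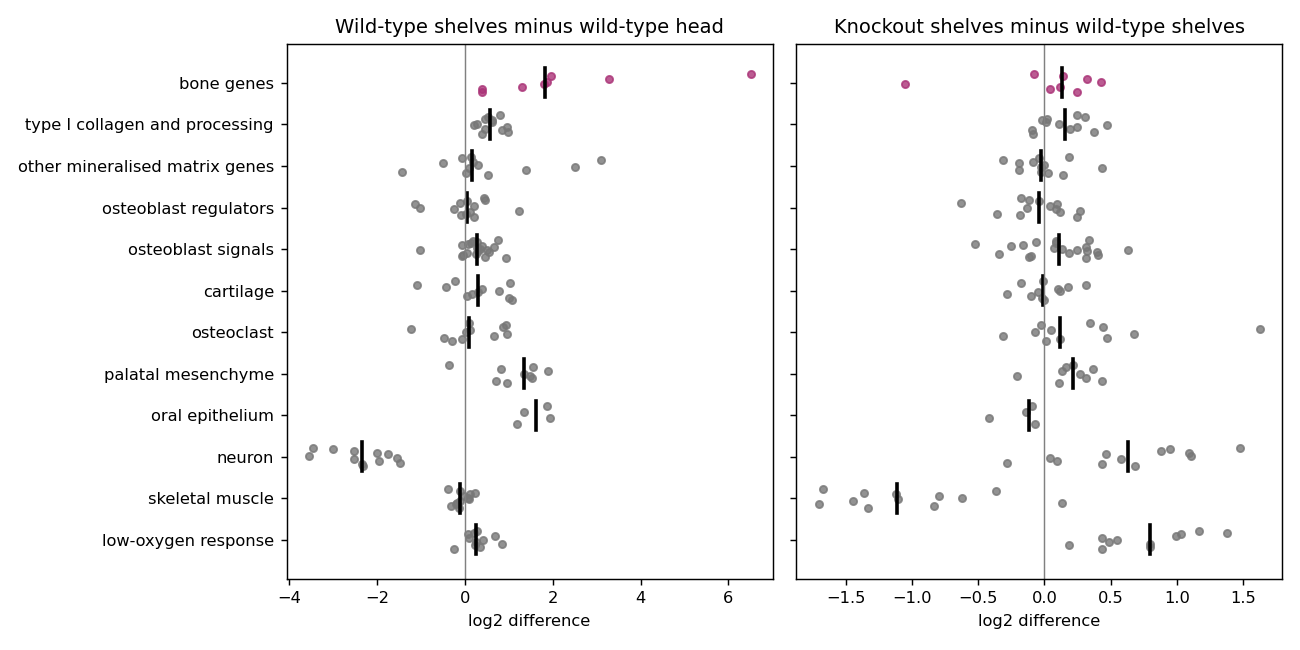
Log2 differences of single genes by list, on the left wild-type shelves minus wild-type head and on the right knockout shelves minus wild-type shelves. Each point is a measured gene, dim ones included, and each black line the median of its list. The bone genes had a median of 1.83 on the left and 0.13 on the right, the neuronal genes -2.33 and 0.63.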

How the data were processed

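The authors deposited log2 expression for each transcript cluster, and the submitters' processing notes name RMA and Affymetrix Expression Console. Build, annotation and versions: not given in the sources used here. This method sets the arrays to a common distribution and compresses folds of dim genes. Dissected tissue was frozen and RNA extracted with TRIzol and a column, per the labels' protocols. Groups came from the sample titles.

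Of 41345 clusters, 23521 carried 1 gene symbol, 1814 several and 16010 no listed gene. Clusters of a gene were averaged. Differences between 2 arrays had no test and were counted from 2-fold. Genotype and tissue effects came from 1 additive limma fit (version 3.58.1, R 4.3.3; lmFit, eBayes, Benjamini-Hochberg adjustment over 11999 genes at or above the limit on any array), checked on simulated data. The genes and lists were chosen with earlier results of these data known. Named genes were the 10 members, up to 4 per list and comparison with the largest absolute difference, and the 6 nearest profiles to the member of widest range. Bglap, Col10a1, Dspp and genes counted as below the limit were named after their values were seen. Comparisons share arrays: each shelf array enters both a tissue and a genotype difference. P-values describe these 4 arrays. Promoter sequences are RefSeq's. Alternatives were other normalizations, the brightest cluster, other filters and folds, the mean, and 3 forms of the limma prior.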

Additional observations from a re-analysis of the deposited data

Results flagged for a closer look

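In 4 of the 8 measured genes the knockout minus wild-type difference had opposite signs in the 2 pairs. The share of all genes with opposite signs was not counted, so this count describes no trait of the bone genes. With 1 array per group the difference between the pairs has no test, and none was made. Dmp1 had log2 differences of 0.46 (head) and -1.06 (shelves), which is -1.52 for shelves minus head, at levels below the limit for entry. For Phex it was -0.044 and 0.43 (shelves minus head 0.47), for Ibsp 0.25 and -0.076 (-0.33), and for Alpl -0.069 and 0.12 (0.19). Phex and Ibsp were below the limit in both heads.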

How the results depend on the processing

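No paired analysis was possible because the labels give no replicate numbers and each group has 1 array. Leaving out an array leaves the additive fit with no residual degrees of freedom, so only the differences of single pairs, given above, could be had. Without a filter on dim genes, 1 bone gene (Dmp1) was at least 2-fold lower in the knockout shelves in place of 0. Averaged by their mean, not their median, the bone genes that entered were 2.55 higher in the wild-type shelves than in the wild-type head in place of 1.92. The comparison of the knockout arrays, added after the data were seen, gave a median of 2.22. Over all alternatives run, 4 to 6 bone genes passed the fold used as higher in the wild-type shelves, 5 to 6 passed the limma fit for tissue and 0 passed it for genotype. The fitted tissue difference ran from 6.30 to 6.34 for Ibsp, from 1.99 to 2.04 for Sp7 and from 1.34 to 1.95 for Alpl. The highest limma adjusted p for tissue was 0.00199 among Ibsp, Sp7, Panx3, Phex and Alpl. Phex dropped out under the upper-quartile filter. Over all genes, the limma fit for genotype called 1 higher and 10 lower with a mean-variance trend, and 82 and 68 with 1 common variance, in place of 0. For tissue, 1029 genes in place of 1555 were called higher under the upper-quartile filter. Under that filter, at least 2-fold counts were 2 higher and 3 lower in the head, 18 and 14 in the shelves and 158 and 334 between the wild-type tissues, in place of 4 and 6, 53 and 54, and 340 and 620. Without a filter, 10 were higher in the head. From 1.5-fold, the counts were 12 and 40, 219 and 153, and 870 and 1207, and from 3-fold 0 and 1, 12 and 13, and 116 and 278. Signal near background limits Dmp1 and Mepe on every array and Ibsp, Panx3 and Phex in the heads.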
